A study of Homo sapiens with 8 samples.

Results

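AP-1 (activator protein 1) is a family of dimeric transcription factors, and 9 of its genes were followed here in human osteosarcoma cells given the microRNA miR-101-3p. The members were chosen by gene symbol: FOS, FOSB, FOSL1 and FOSL2 of the Fos branch, JUN, JUNB and JUND of the Jun branch, and ATF3 and BATF3 of the wider bZIP family. All 9 were found among the 15982 genes of the count table, and all 9 passed the filter on low counts, which left 15905 genes. The cells were 143BTK-, an osteosarcoma line without thymidine kinase, grown without glucose in 10 mM galactose with 5% dialysed serum, so that both groups shared this respiratory medium. The miR-101 group received 80 pmol of a synthetic hsa-miR-101-3p mimic and the control group 80 pmol of a scrambled negative control mimic, each given again at 48 h, with harvest at 120 h and 4 libraries per group. The labels give 4 independent transfection experiments on a single cell line, which do not measure the spread between donors. Replicates 1 and 2 of each group lay much closer together than the other replicates, and the files do not show whether these libraries come from separate transfections. If they do not, the SD and p-values over 4 libraries per group may understate the error.

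AP-1 factors bind DNA as dimers through a basic region and a leucine zipper. Fos proteins pair poorly with each other and bind mostly with a Jun partner, while Jun proteins also pair among themselves. FOS, FOSB, JUNB and ATF3 are immediate early genes, whose short-lived mRNAs rise within minutes of growth factor or stress signals through MAP kinases. AP-1 is known in bone cells and osteosarcoma for driving matrix metalloproteinases, cytokines and proliferation, and FOS is a described target of miR-101.

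A microRNA recognises an mRNA mainly through its seed, bases 2 to 8 counted from the 5′ end. The mature sequence is shown with the seed in capitals because each match is its complement. It is the RefSeq sequence from the MIR101-2 gene, GRCh38.p14 chr9:4850345-4850365 on the plus strand.
hsa-miR-101-3p: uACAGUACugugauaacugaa

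The longest annotated 3′ UTR of each member (GENCODE 29, GRCh38) was searched on the mRNA strand for GTACTGT (the 7mer-m8 match), for the same letters followed by A (GTACTGTA, the 8mer) and for TACTGTA outside an 8mer (the 7mer-A1). Of the 9 members, 2 held a match, FOS an 8mer and JUNB a 7mer-m8. The remaining 7 (FOSB, FOSL1, FOSL2, JUN, JUND, ATF3 and BATF3) held none in that window. Among 12188 tested genes with an annotated 3′ UTR, 4.59% were in the 8mer class, 8.18% in the 7mer-m8 class and 11.1% in the 7mer-A1 class. Both sites are printed with the match in capitals, since these are the places where the mimic could pair with an AP-1 mRNA in this window.
FOS: ctatatccatGTACTGTAgttttt
JUNB: tctctgcaccGTACTGTggaaaa

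The FOS match lies in GRCh38 chr14:75281948-75281955 on the plus strand, in the 3′ UTR in the last of 4 exons of the transcript. It begins at base 524 of a 3′ UTR of 806 bases, which is carried by 1 of 9 annotated coding transcripts. The JUNB match lies in GRCh38 chr19:12793191-12793197 on the plus strand, at base 376 of the 500 bases of the 3′ UTR of this gene of 1 exon. A match is a description of letters and was not tested as a binding site.

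The libraries held between 17603054 and 20160267 counts, and every member had at least 71 reads in each of them. Mesenchymal markers were abundant as a sum: 9 of 11 were in the table, with a summed level of 1529 to 2715 CPM (read counts scaled to a library of fixed size) with miR-101 and 1663 to 2367 CPM in the control. SPARC, VIM, NT5E and FN1 made up most of it. COL1A1 (3.96 to 17.9 CPM), S100A4 (11.3 to 22.5 CPM) and ENG (0.921 to 2.53 CPM) were low in both groups. SPARC stood at 1433, 1442, 530.1 and 362.4 CPM in miR-101 replicates 1 to 4, against 840.9, 796.3, 323.7 and 295 CPM in the control. Of the epithelial markers 3 of 7 were present (EPCAM, KRT8 and KRT18, summed 359.6 to 625.1 CPM in miR-101 cells, against 288.5 to 375.1 CPM in control cells). The 2 of 7 blood markers present summed to at most 2.15 CPM in miR-101 cells, against 4.44 CPM in control cells. For the 2 of 4 endothelial markers present, the sum was at most 6.33 CPM in miR-101 cells, against 10.4 CPM in control cells. Of the epithelial markers, KRT8, a keratin with many pseudogene copies and therefore uncertain, rose by 0.93 on the log2 scale without overlap of the groups (edgeR adjusted p = 0.0114). EPCAM, an adhesion protein, was higher with miR-101 in 4 of 4 same-numbered pairs and was called with the block only (log2 fold change 0.72, edgeR adjusted p = 0.0115), and KRT18 was not called (0.51, edgeR adjusted p = 0.12). Their part in the results on the AP-1 genes was not tested. EZH2, a described miR-101 target, averaged 28.1 ± 2.09 CPM in miR-101 cells, against 45.7 ± 5.12 CPM in control cells (mean ± SD, n = 4 each; edgeR adjusted p = 0.00561), which gives a check of the mimic. The cause of the closeness of replicates 1 and 2 was not tested, and member values that differ between replicates 1 and 2 and replicates 3 and 4 are given for both. With replicates 1 and 2 summed to 1 sample per group, edgeR called 173 genes (1.09% of those tested) in place of 1053, and none of the 9 members. EZH2 was not called in that fit either (edgeR adjusted p = 0.0809).

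Without a term for the replicate, the quasi-likelihood test of edgeR put none of the 9 members under a Benjamini-Hochberg adjusted p of 0.05, the threshold for a call, which 6.62% of all tested genes passed. At an unadjusted p under 0.05 there were 2 members, FOSL1 and JUNB, against 22.3% of all tested genes. Same-numbered miR-101 and control libraries deviated together from their group means, but libraries of different numbers were not compared in this way. Whether the same-numbered libraries are true pairs was therefore not tested. With the replicate number as a block, edgeR called 2 of the 9, FOSL1 lower and JUNB higher, where 10.5% of all tested genes were called. DESeq2 called the same 2 members without the block, where it called 10.7% of all genes. Limma-voom called none of the 9, where it called 6.66% of all tested genes. In no member were the 4 miR-101 libraries separated without overlap from the 4 control libraries, whereas 15.1% of all tested genes were so separated. The median log2 fold change of the 9 members, miR-101 over control, was 0.053, and that of all tested genes was -0.0051.

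**Figure D1:**
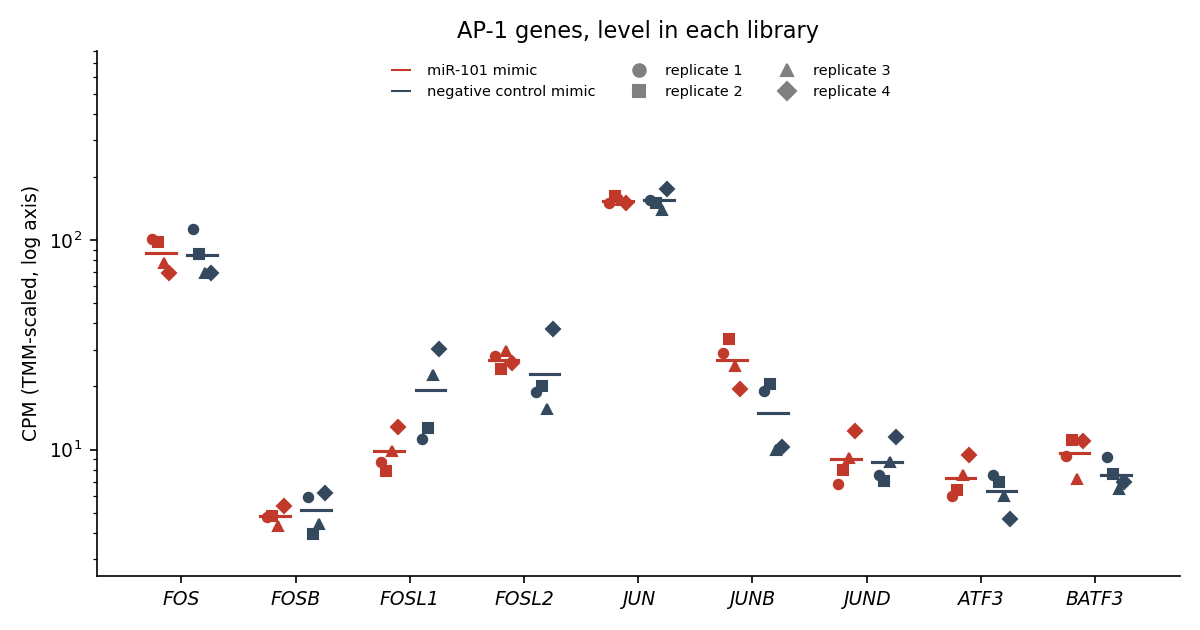
TMM-scaled CPM of each AP-1 gene in each library on a log axis, miR-101 mimic left of negative control mimic, with a point shape for each replicate number and a bar for the mean of 4 libraries. FOSL1 is lower with miR-101 (mean 9.80 against 19.2 CPM) and JUNB higher (26.7 against 15.0 CPM), while JUN and FOS have nearly the same mean in both groups.

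Per length of mRNA, the AP-1 transcripts of these cells were mostly JUN and FOS. CPM per kb of annotated exon put JUN first at 43.5 ± 1.72 with miR-101 and 43.7 ± 4.39 in the control (SD, n = 4 each). FOS was second at 26.7 ± 4.78 with miR-101 and 26.1 ± 6.30 in the control, and its libraries did not overlap those of JUN in either group. The third and the fourth place by mean differed between the groups on this scale: JUNB (14.7 ± 3.34) stood above FOSL1 (5.20 ± 1.13) in each miR-101 library, and in the control FOSL1 (10.2 ± 4.69) and JUNB (8.22 ± 3.07) overlapped. In control replicates 1 and 2 JUNB was above FOSL1 as well (19.0 and 20.5 CPM against 11.3 and 12.7 CPM). Only in control replicates 3 and 4 was it below (9.99 and 10.3 CPM against 22.7 and 30.1 CPM).

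Below them came JUND, FOSL2, BATF3, ATF3 and FOSB in that order in both groups. FOSB was the lowest, at 0.866 ± 0.078 CPM per kb with miR-101 and 0.924 ± 0.20 in the control. JUND, FOSL2 and BATF3 overlapped as neighbours in both groups, while ATF3 and FOSB each lay apart from the gene above. The order depends on the length used. Divided by the length of the transcript with the longest 3′ UTR, FOS reached 40.1 ± 7.18 with miR-101 and 39.2 ± 9.45 in the control and overlapped JUN, and BATF3 moved up to the fourth place with miR-101 (9.84 ± 1.83) and the fifth in the control (7.74 ± 1.23).

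**Figure D2:**
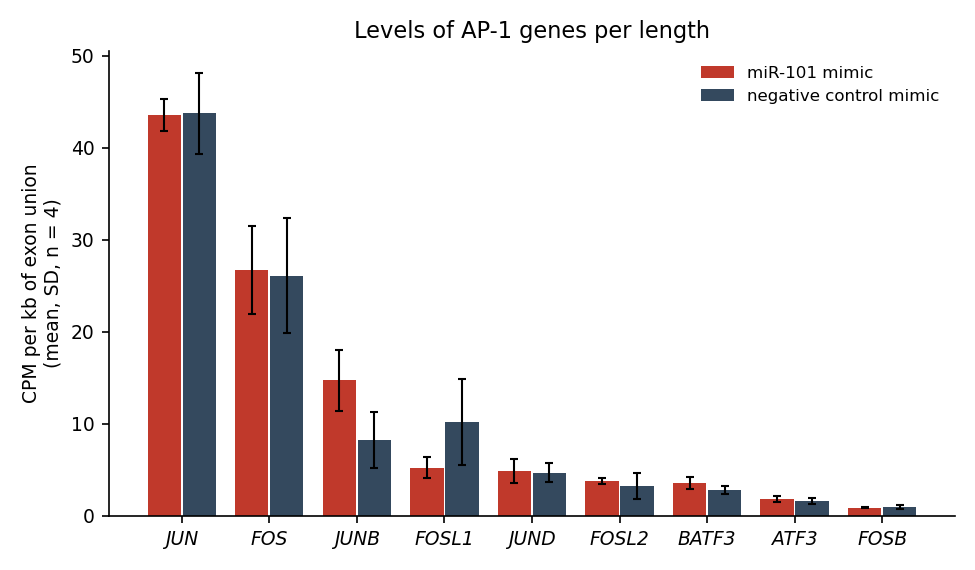
Mean CPM per kb of exon union for each AP-1 gene, miR-101 mimic left of negative control mimic, with SD over 4 libraries. JUN and FOS are highest in both groups, and the means of JUNB (14.7 against 8.22) and FOSL1 (5.20 against 10.2) trade places. In control replicates 1 and 2, JUNB was above FOSL1 as with miR-101.

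Added together per kb, the 4 Fos genes made up 33.3% to 37.9% of the summed level of the 9 genes in miR-101 libraries and 37.3% to 41.2% in control libraries. The 3 Jun genes made up 57.5% to 61.8% with miR-101 and 54% to 58.1% in the control. ATF3 and BATF3 together made up 4.49% to 6.46% with miR-101 and 3.43% to 4.88% in the control. The ranges of the groups overlapped in each of these shares. Within same-numbered pairs, the Fos share was lower with miR-101 in 4 of 4, the Jun share was higher in 4 of 4, and the share of ATF3 and BATF3 was higher in 3 of 4. These differences were not tested.

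FOS, the founding member of the Fos branch, is the AP-1 gene with the strongest class of match to the seed, and its mRNA did not pass the test in either direction. It stood at 101.2, 98.0, 77.5 and 69.5 CPM in miR-101 replicates 1 to 4, against 112.9, 85.7, 69.9 and 69.5 CPM in control replicates 1 to 4. Replicates 1 and 2 were high and replicates 3 and 4 low in both groups, and the groups overlapped throughout. The log2 fold change was 0.03 ± 0.178 (SE; 95% interval -0.36 to 0.43; edgeR adjusted p = 0.936), with 3 of 4 same-numbered pairs higher with miR-101, pair 4 by 0.00011 on the log2 scale. With the replicate block it was 0.05 with an interval of -0.17 to 0.27 (edgeR adjusted p = 0.803). A fall of more than 0.17 on the log2 scale lay outside the interval of this fit, while without the block the interval reached -0.36.

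Genes of the same class were lower in the middle: the 560 tested genes with an 8mer had a median log2 fold change of -0.26, and edgeR called 123 of them lower and 12 higher. FOS lay above that median, and 22.1% of the 8mer genes had a higher fold change than FOS. It was 1 of 425 genes of this class that were not called (75.9%).

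FOSL1, which encodes Fra-1, a Fos protein without the transactivation domain of FOS that is abundant in many invasive tumour cells, fell with the block and carried no match to the seed. The gene lies in GRCh38 chr11:65892049-65900573 on the minus strand, with no annotated exon of another gene over its own. It stood at 8.69, 7.90, 9.84 and 12.8 CPM in miR-101 replicates 1 to 4, against 11.3, 12.7, 22.7 and 30.1 CPM in control replicates 1 to 4. Each miR-101 library was below the control library of its number, and the groups overlapped because miR-101 replicate 4 was above control replicates 1 and 2. The log2 fold change was -0.97 ± 0.298 (95% interval -1.63 to -0.31), a 1.96-fold lower level, with an edgeR adjusted p of 0.0825. With the replicate block it was -0.89 ± 0.169 (edgeR adjusted p = 0.016). In RNA from whole cultures, fewer cells with a transcript and less of it per cell cannot be told apart.

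The difference was present in both sets of replicates and not of one size. The log2 ratios of pairs 1 to 4 were -0.37, -0.69, -1.20 and -1.23. In replicates 1 and 2 alone FOSL1 fell by 0.54 (edgeR adjusted p = 0.000877), and in replicates 3 and 4 alone its log2 fold change was -1.22 (edgeR adjusted p = 0.253). These fits called 32.4% and 0.0379% of all tested genes. The p-value from replicates 1 and 2 may understate the error, since these libraries may not be separate transfections. The control libraries spread more widely than the miR-101 libraries, with 11.3 and 12.7 CPM in replicates 1 and 2 and 22.7 and 30.1 CPM in replicates 3 and 4. Whether the effect differs between the 2 sets was not tested. Without control replicate 1 FOSL1 was called without the block (log2 fold change -1.15, edgeR adjusted p = 0.048), where 3.85% of all tested genes were called. Without control replicate 4 its log2 fold change was -0.66.

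JUNB, a Jun protein that activates transcription less strongly than JUN and restrains it at many sites, rose with the block. The gene lies in GRCh38 chr19:12791496-12793315 on the plus strand. It stood at 28.9, 33.7, 24.9 and 19.4 CPM in miR-101 replicates 1 to 4, against 19.0, 20.5, 9.99 and 10.3 CPM in control replicates 1 to 4. Every miR-101 library was above the control library of its number, and only miR-101 replicate 4 lay below a control library, replicate 2. The log2 fold change was 0.84 ± 0.258 (95% interval 0.27 to 1.41), a 1.79-fold higher level, with an edgeR adjusted p of 0.0832. With the replicate block it was 0.88 ± 0.139 (edgeR adjusted p = 0.00766).

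The log2 ratios of JUNB in pairs 1 to 4 were 0.60, 0.72, 1.32 and 0.91. In replicates 1 and 2 alone JUNB rose by 0.66 (edgeR adjusted p = 4.08e-08), where 32.4% of all tested genes were called. That p-value carries the same doubt about replicates 1 and 2. In replicates 3 and 4 alone the log2 fold change of JUNB was 1.12 (edgeR adjusted p = 0.268). The rise ran against the class of its site, since the 997 tested genes with a 7mer-m8 match had a median of -0.097, with 85 called lower and 40 higher, and 3.21% of them had a higher fold change than JUNB. The value carries an uncertainty of counting: exons of HOOK2 on the opposite strand overlap 259 bases of JUNB, and whether counting used the strand is not given in the sources used here. HOOK2 itself stood at 4.80 ± 1.21 CPM in miR-101 cells, against 3.85 ± 0.709 CPM in control cells (SD, n = 4 each; edgeR adjusted p = 0.441).

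**Figure D3:**
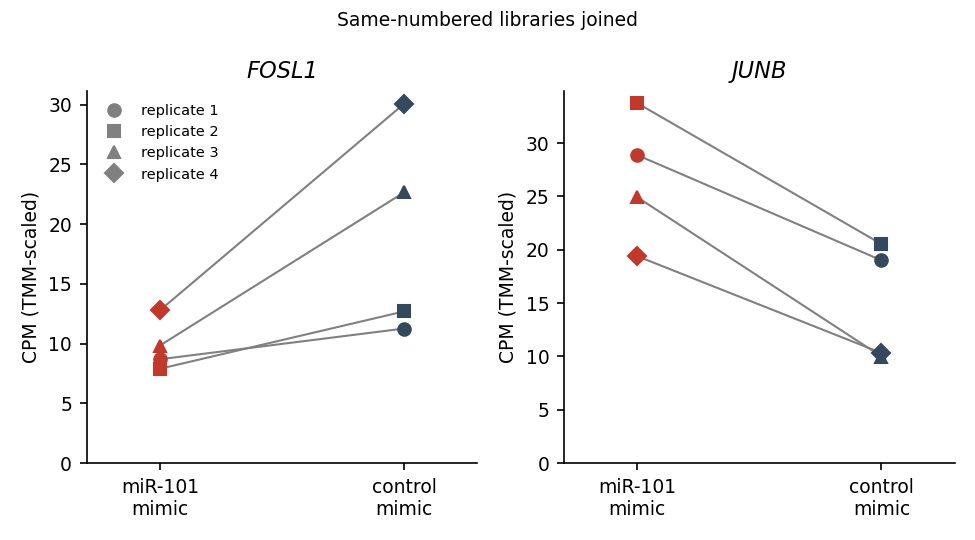
CPM of FOSL1 and JUNB in each library, with a line joining the miR-101 and control libraries of the same replicate number. All 4 lines of FOSL1 are lower at the miR-101 end, and all 4 lines of JUNB are higher there.

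FOSL2, which encodes Fra-2, a Fos protein needed for normal bone cells in mice, stood at 28.0, 24.1, 29.6 and 25.8 CPM in miR-101 replicates 1 to 4, against 18.7, 20.2, 15.6 and 37.5 CPM in control replicates 1 to 4. The miR-101 libraries were close together, and control replicate 4 alone was above them while the other 3 control libraries were below. Over all libraries the log2 fold change was 0.22 ± 0.237 (95% interval -0.30 to 0.74; edgeR adjusted p = 0.629). This rests on that library: without control replicate 4 FOSL2 was called higher (log2 fold change 0.56, edgeR adjusted p = 0.0221). That fit called 8.91% of all tested genes. FOSL2 was also called higher in replicates 1 and 2 alone (0.41, edgeR adjusted p = 0.00069), where 32.4% of all tested genes were called. In replicates 3 and 4 alone the value was 0.058 (edgeR adjusted p = 0.984).

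FOSB, an inducible Fos protein, was the least abundant member, with 88 to 99 reads per miR-101 library and 71 to 130 per control library. Its level ran from 4.31 to 5.36 CPM with miR-101 and from 3.97 to 6.21 CPM in the control, so that the control libraries enclosed all miR-101 libraries. Its log2 fold change was -0.096 ± 0.182 (95% interval -0.50 to 0.31; edgeR adjusted p = 0.805).

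JUN, the central partner of all Fos proteins, was the most abundant member and, in the fit without the block, the one with the narrowest interval. It stood at 149.3, 162.2, 155.6 and 149.5 CPM in miR-101 replicates 1 to 4, against 155.2, 149.5, 138.7 and 175.8 CPM in control replicates 1 to 4. The miR-101 libraries lay within the range of the control. Its log2 fold change was -0.0063 ± 0.0993 with a 95% interval of -0.23 to 0.21 (edgeR adjusted p = 0.981), so that a change of more than 0.23 on the log2 scale in either direction lay outside the interval.

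JUND, a Jun protein expressed steadily in resting cells, stood at 6.81 to 12.2 CPM in miR-101 cells, against 7.05 to 11.4 CPM in control cells. Replicate 4 was the highest in both groups. Its log2 fold change was 0.05 ± 0.212 (95% interval -0.41 to 0.52; edgeR adjusted p = 0.913).

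ATF3, a stress-induced factor that can repress as a homodimer, stood at 6.01, 6.40, 7.54 and 9.37 CPM in miR-101 replicates 1 to 4, against 7.58, 7.0, 6.02 and 4.68 CPM in control replicates 1 to 4. The pairs split, since miR-101 was lower in pairs 1 and 2 and higher in pairs 3 and 4. Over all libraries the log2 fold change was 0.21 ± 0.197 (95% interval -0.22 to 0.65; edgeR adjusted p = 0.564). In replicates 1 and 2 alone it was -0.24 (edgeR adjusted p = 0.26), and in replicates 3 and 4 alone 0.66 (edgeR adjusted p = 0.647).

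BATF3, a small factor made of little more than the basic region and zipper and known for dendritic cell development in mice, stood at 9.28, 11.0, 7.25 and 11.0 CPM in miR-101 replicates 1 to 4, against 9.23, 7.68, 6.45 and 6.98 CPM in control replicates 1 to 4. It was higher with miR-101 in 4 of 4 pairs, by very little in pair 1, and the groups overlapped. The log2 fold change was 0.34 ± 0.177 (95% interval -0.044 to 0.73; edgeR adjusted p = 0.281), and with the block 0.34 ± 0.152 (edgeR adjusted p = 0.196).

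**Figure D4:**
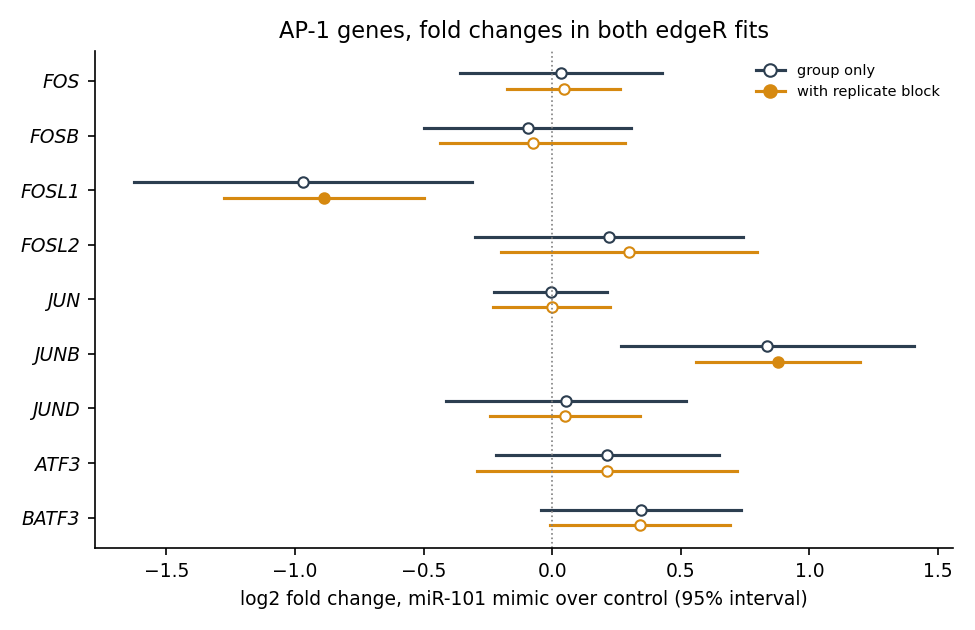
Log2 fold change of each AP-1 gene, miR-101 mimic over negative control mimic, with 95% intervals from edgeR without and with the replicate block; filled points have an adjusted p under 0.05. Only FOSL1 (-0.89) and JUNB (0.88) are filled, both with the block, and the interval of JUN (-0.23 to 0.21) is narrow around 0.

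**Figure D5:**
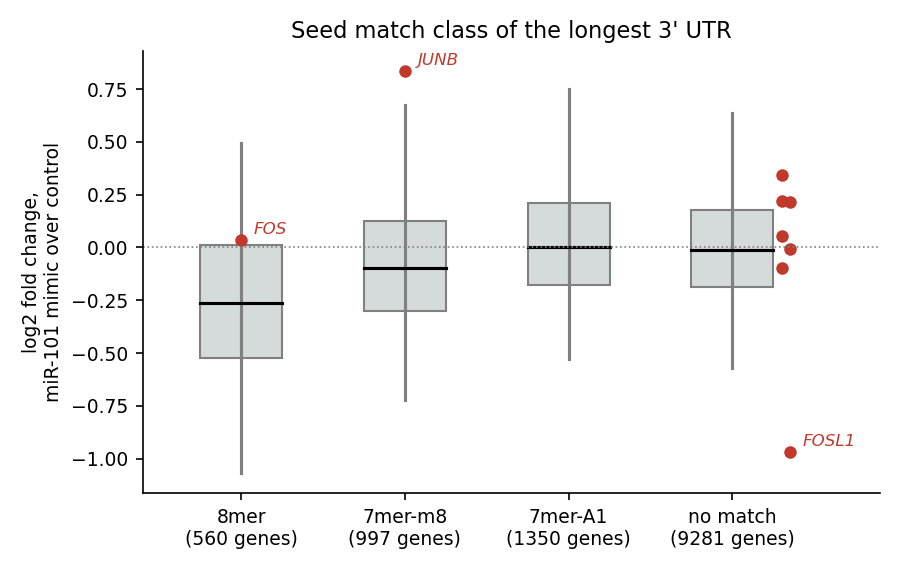
Log2 fold changes of all tested genes by class of seed match in the longest 3′ UTR, drawn as the median, the box from the 25th to the 75th percentile and a line from the 5th to the 95th, with the 9 AP-1 genes as points. FOS (0.03) lies above the 8mer median (-0.26), JUNB (0.84) above the 7mer-m8 median (-0.097), and FOSL1 (-0.97) is low without a match.

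The members also differ in AU-rich pentamers (ATTTA, counted on the mRNA strand with overlaps), letters that occur in the instability elements of short-lived mRNAs. FOS held 5 in its 3′ UTR (6.20 per kb) and JUNB 2 (4.00 per kb), against a median of 1.79 per kb over all tested genes with a 3′ UTR. FOSL1 held 1 (1.19 per kb) and FOSL2 9 in a 3′ UTR of 4864 bases (1.85 per kb). BATF3 (2.68 per kb), ATF3 (2.45) and JUN (2.33) also lay above the median, and JUND (1.47) and FOSB (1.38) below it. As many as FOS were found in 35.8% of all tested genes with a 3′ UTR, as many as JUNB in 60.6% and as many as FOSL1 in 75.9%.

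The 5 genes whose profile over the 8 libraries was most like that of FOS, by the root mean square difference of centred log2 CPM, were GPR157 (0.0742), SUSD6 (0.0895), MPV17 (0.0904), WBP1L (0.0947) and LGMN (0.0971), where the median gene differed from FOS by 0.371. None of the 5 was called by edgeR (adjusted p from 0.71 to 0.993). They were chosen for likeness to FOS, whose mean differed little between the groups, so this outcome follows from the choice.

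Of 24 tested genes for related bZIP factors, 2 were called by edgeR, both higher (8.33%, close to the 6.62% of all tested genes), and 5 were called with the block, all higher, where 10.5% of all tested genes were called. CEBPD, an inflammation-induced C/EBP factor, averaged 46.9 ± 9.33 CPM in miR-101 cells, against 11.97 ± 5.09 CPM in control cells (SD, n = 4 each; log2 fold change 1.97, edgeR adjusted p = 0.00259). NFIL3, a repressor of the bZIP class, rose by 0.59 (edgeR adjusted p = 0.0159), a call that needed both miR-101 replicate 3 and control replicate 2 (highest edgeR adjusted p 0.0576 when either was left out), and NFE2L2, the antioxidant factor NRF2, had a log2 fold change of -0.34 (edgeR adjusted p = 0.0956). Exons of other genes, AGPS on the opposite strand among them, overlap NFE2L2, which makes its value uncertain.

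The MAP kinase list, like the other lists, was chosen with earlier results of these data known, so its share is not an independent comparison. Of 32 tested genes of the MAP kinase cascades that switch AP-1 on, 3 fell and 1 rose (12.5%, against 6.62% of all tested genes). Among them, RPS6KA1, a ribosomal S6 kinase, fell by 0.44 (edgeR adjusted p = 0.0366) and MAP3K3 by 0.59 (edgeR adjusted p = 0.043), with MAP3K3 uncertain because LIMD2 overlaps it on the opposite strand and not called with the block (edgeR adjusted p = 0.0539), and MAP3K8 rose by 0.98 (edgeR adjusted p = 0.0172). All 4 calls were lost when miR-101 replicate 2 was left out, and all with replicates 1 and 2 summed to 1 sample per group. MAP3K8 alone stayed called when miR-101 replicate 1 was left out, and 1 lower gene when control replicate 2 was. Leaving out miR-101 replicate 3 or 4 or control replicate 1 left 1 higher and 1 lower gene.

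Of 20 tested genes for factors that act on the FOS and JUN promoters, 1 was called, higher (5%), and 1 higher and 1 lower were called with the block. Both counts are near the shares of all tested genes, 6.62% and 10.5% with the block, and say nothing particular of this list. The rise was that of STAT3, which is activated by cytokine receptors, at 215.3 ± 24.6 CPM in miR-101 cells, against 131.5 ± 28.6 CPM in control cells (log2 fold change 0.71, edgeR adjusted p = 0.025), and it was not called when miR-101 replicate 1 or replicate 2 was left out (highest edgeR adjusted p 0.0845). The MEF2 factors MEF2D (-0.60, edgeR adjusted p = 0.0847) and MEF2A (-0.49, edgeR adjusted p = 0.0875) followed, and MEF2A, which LYSMD4 overlaps on the opposite strand, was called lower with the block (edgeR adjusted p = 0.0337). Of 16 tested genes for turnover and inhibition of AP-1, 1 fell (6.25%, again near the 6.62% of all tested genes): TRIB1, an adaptor of the COP1 ubiquitin ligase, at 9.22 ± 0.921 CPM in miR-101 cells, against 19.4 ± 2.38 CPM in control cells (log2 fold change -1.07, edgeR adjusted p = 0.00183). TRIB1 held 2 matches to the seed in its longest 3′ UTR (7mer-m8 class). SIRT1 (0.30, edgeR adjusted p = 0.164) and ZFP36L2 (-0.52, edgeR adjusted p = 0.29) came next in that list.

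Other immediate early genes, which share the inducible class of FOS and JUNB, had calls in both directions. Of 24 tested, 2 rose and 3 fell (20.8%, against 6.62% of all tested genes). With the block 4 rose and 5 fell, where 10.5% of all tested genes were called. This list too was chosen with earlier results known, so these shares are not an independent comparison. The rises were the orphan receptor NR4A3 (log2 fold change 2.02, edgeR adjusted p = 0.0139) and the cytokine feedback inhibitor SOCS3 (1.21, edgeR adjusted p = 0.0191). NR4A3 had a low level (mean 1.82 CPM with miR-101, 0.450 CPM in the control). The falls were the kinase SGK1 (-0.98, edgeR adjusted p = 0.00146), the factor KLF2 (-1.57, edgeR adjusted p = 0.0237) and the survival protein MCL1 (-0.50, edgeR adjusted p = 0.043), the last uncertain because ADAMTSL4-AS1 overlaps it. Leaving out miR-101 replicate 1 or 2 ended the calls of SOCS3, KLF2 and MCL1 (1 higher and 1 lower were left), while SGK1 and NR4A3 stayed called whichever library was left out. With miR-101 replicate 3 or replicate 4 left out, KLF2 and MCL1 lost theirs, which left 2 higher and 1 lower, and MCL1 was also not called when any of control replicates 1 to 3 was left out (highest edgeR adjusted p 0.13).

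Of 37 tested genes described as AP-1 targets, 5 rose and 6 fell (29.7%, against 6.62% of all tested genes), with a median log2 fold change of -0.12. With the block 8 rose and 12 fell (10.5% of all tested genes were called). Because the targets were listed with earlier results of these data known, the shares are not an independent comparison. Whether AP-1 activity changed was not tested. Metalloproteinases went in opposite directions: MMP1, the interstitial collagenase, averaged 264.2 ± 24.98 CPM in miR-101 cells, against 496.9 ± 54.2 CPM in control cells (log2 fold change -0.91, edgeR adjusted p = 0.00175), while MMP13 rose by 1.64 (edgeR adjusted p = 0.00907) and MMP9 by 2.01 (edgeR adjusted p = 0.00444). The cytokines IL6 (2.77, edgeR adjusted p = 0.000612) and CXCL8 (1.86, edgeR adjusted p = 0.0131) and the angiogenic factor VEGFA (0.92, edgeR adjusted p = 0.0123) rose. IL1B (-1.74, edgeR adjusted p = 0.0112), IL11 (-1.30, edgeR adjusted p = 0.00517), the collagen receptor subunit ITGA2 (-1.20, edgeR adjusted p = 0.00635), the cell cycle inhibitor CDKN1A (-1.13, edgeR adjusted p = 0.0222) and the growth factor HBEGF (-0.78, edgeR adjusted p = 0.00907) fell. In the longest 3′ UTR, ITGA2 held 3 matches to the seed (8mer class) and CDKN1A 1 (7mer-m8). The other called targets held none. Whether the mimic acted directly on ITGA2 or CDKN1A was not tested. Among these target genes, MMP9 (mean 2.83 CPM with miR-101, 0.697 CPM in the control) and IL1B (1.84 and 6.21 CPM) had low levels. Exons of other genes overlap IL6, MMP1, MMP9, VEGFA and CDKN1A on the opposite strand, an uncertainty of counting as for JUNB. All of the called target genes but CDKN1A stayed called whichever library was left out. CDKN1A was not called when replicate 1 of either group, miR-101 replicate 3 or control replicate 2 was left out (highest edgeR adjusted p 0.0663). With replicates 1 and 2 summed, 2 rose and 1 fell in the list.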

How the data were processed

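RNA-seq was measured in 8 libraries of total RNA prepared with Ribo-zero Gold, per the labels. The authors deposited whole-number read counts per gene symbol, not normalised. The submitters' processing notes name hg38, StringTie 1.2.4, TopHat2 2.0.14 and bcl2fastq 2.18.0.12; for the counter, its annotation and its strand setting nothing is stated in the sources used here. From these counts, edgeR 4.0.16 (R 4.3.3, limma 3.58.1) was run with filterByExpr, TMM factors, glmQLFit and glmQLFTest over all genes, with group alone in the model and p-values adjusted by Benjamini-Hochberg. SE is the log2 fold change divided by the square root of F. CPM use TMM-adjusted library sizes. The script was tested on simulated data. DESeq2 1.42.0, limma-voom, other size factors, no filter, robust estimation, leaving out libraries and sets of replicates were tried.

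Members and lists were chosen with earlier results of these data known. Other lists give every called member, or up to 3 with the smallest p-values, and 5 genes most like FOS. One called gene of the MAP kinase list is counted there but not reported here by name. Same-numbered libraries were taken as pairs, since their deviations from the group means correlated over genes at 0.328, 0.425, 0.185 and 0.209, each above 0.1. Correlations between libraries of different numbers were not compared with these, so the pairing itself was not tested. Replicates 1 and 2 differed by 3.82 (miR-101) and 4.72 (control) times the sampling variance per gene, other replicates of a group by 14.5 to 70.9 times. These values exceed counting noise but do not show separate transfections. All libraries were kept as separate samples, as the labels give them, and a fit with replicates 1 and 2 summed is given beside it. Depth of 17603054 to 20160267 counts limits the precision of the least abundant genes.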

Additional observations from a re-analysis of the deposited data

Results flagged for a closer look

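In 39 genes followed, 78 groups of 4 libraries were examined for a library far from the other 3 (a gap above the critical value of Dixon's test), and chance gives about 1 in 20 groups. None of the 9 AP-1 members had such a library. There were 4 in other genes: MCL1 at 790.3 CPM in miR-101 replicate 3 (the other 3 at 660.2 to 668.6 CPM), MMP1 at 226.8 CPM in miR-101 replicate 3 (274.6 to 277.9 CPM), TRIB1 at 7.86 CPM in miR-101 replicate 4 (9.54 to 9.84 CPM) and MEF2D at 3.13 CPM in control replicate 2 (2.61 to 2.68 CPM).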

How the results depend on the processing

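No member was called with RLE size factors, limma-voom, no filter or robust estimation. DESeq2 called FOSL1 (-0.97) and JUNB (0.83), 2 members of 1714 genes called (10.7%). The replicate block called the same 2 (-0.89 and 0.88) of 1676 genes (10.5%), against 1053 genes (6.62%) without it. Replicates 1 and 2 alone gave 3 members, FOSL1 (-0.54), FOSL2 (0.41) and JUNB (0.66), of 5126 genes called (32.4% of those tested). They turned the signs of FOS (-0.00086), JUN (0.026) and ATF3 (-0.24). Replicates 3 and 4 alone called 6 genes (0.0379%) and replicates 1 and 2 summed 173 (1.09%), with no member. Leaving out 1 library at a time gave 488 to 1419 genes and 0 to 1 members: FOSL1 without control replicate 1 (3.85% of all tested genes called) and FOSL2 without control replicate 4 (8.91%). The log2 fold changes then ran from -0.052 to 0.21 for FOS, -0.20 to 0.011 for FOSB, -1.15 to -0.66 for FOSL1, 0.071 to 0.56 for FOSL2, -0.060 to 0.060 for JUN, 0.68 to 1.03 for JUNB and -0.13 to 0.22 for JUND, so that FOS, FOSB, JUN and JUND have no fixed sign, while ATF3 (0.068 to 0.31) and BATF3 (0.27 to 0.46) stayed above 0. The cause of these differences was not tested. Of the 25 other called genes followed, EZH2 included, 15 stayed called whichever library was left out, 24 were called with the replicate block and 7 with replicates 1 and 2 summed.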
